A study of Homo sapiens with 18 samples.

Results

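Collagens, laminins and the core proteins that bind them were followed in 2 derivatives of U2OS, an osteosarcoma line of human origin, each stably carrying a vector from which doxycycline induces an estrogen receptor, alpha (ERα) in one line and beta (ERβ) in the other. The members were the genes with a collagen symbol (COL and a number) or a laminin symbol (LAMA, LAMB or LAMC and a number), together with FN1, FBN1, FBN2, ELN, POSTN, DCN, LUM, BGN, VCAN, FBLN1, FBLN2, FBLN5, LOX, LOXL1, LOXL2, THBS1, THBS2 and TNC. The array carried annotated probes for 74 such genes. Of these, 56 entered the tests because a probe was called detected (detection p below 0.01) on 3 or more of the 18 arrays. They were 32 collagens, 9 laminins and 15 other matrix proteins, among 13505 genes tested in all. The other 18 were not tested: COL1A2, COL4A4, COL5A3, COL6A4P1, COL6A4P2, COL6A6, COL9A3, COL19A1, COL21A1, COL23A1, COL25A1, COL28A1, LAMA4-AS1, LAMB2P1, LAMB4, LOXL2, THBS2 and VCAN. A total of 42 members were detected on all 18 arrays.

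The study had 6 groups of 3 single-colour Illumina arrays: the ERα line uninduced, induced with doxycycline, and induced and given E2 (the usual short name of estradiol), and the ERβ line in the same 3 states. Doxycycline switches the vector on and was present in both groups of each E2 comparison. All 6 groups carried a receptor vector, so no group was untransfected. Doses, treatment times and whether each line was 1 clone are not given in the sources used here. Nor do they say whether the triplicates were separate cultures, so the p-values weigh changes against array-to-array spread that could be technical. ESR2, which encodes ERβ, averaged 11.26 on the normalized log2 scale in the ERβ line without doxycycline, 15.94 with it and 16.04 with E2 as well, so it was detected on all arrays of that line before induction. The ESR1 probe was detected on 0 of 3 ERα arrays with doxycycline and on 2 of 3 with E2; whether it lies within the vector's transcript is not given, so it does not check the ERα label. Of 10 osteoblast-lineage and mesenchymal markers, 7 were detected on all 18 arrays, among them VIM and RUNX2, while SP7 was detected on 0 arrays and IBSP on 1.

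Collagens are trimers of alpha chains. Fibrillar types (I, II, III, V, XI, XXIV and XXVII) build cross-striated fibrils, fibril-associated types (IX, XII, XIV, XVI) sit on them, type VI forms beaded filaments, types IV, VIII and X form networks, and types XV and XVIII carry glycosaminoglycan chains next to basement membranes. Laminins are trimers of an alpha, a beta and a gamma chain and organise basement membranes. Osteoblasts, the lineage of osteosarcoma, lay down a matrix dominated by type I collagen, which lysyl oxidase (LOX) crosslinks and small leucine-rich proteoglycans such as decorin and lumican coat.

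Promoter sequences are shown, picked after the values were seen, for COL18A1, COL15A1 and LOX, which are 3 of the 6 members that rose with doxycycline and again with E2 in the ERβ line, and for a head-to-head pair (COL4A1 and COL4A2) whose differences between the lines were alike. They are RefSeq sequences on GRCh38.p14, from 250 bases before to 50 after the gene's start, written 5′ to 3′ on the gene's strand. Capitals mark the GC box GGGCGG on either strand, with overlapping matches counted.
COL18A1, chr21:45404915-45405214, plus strand: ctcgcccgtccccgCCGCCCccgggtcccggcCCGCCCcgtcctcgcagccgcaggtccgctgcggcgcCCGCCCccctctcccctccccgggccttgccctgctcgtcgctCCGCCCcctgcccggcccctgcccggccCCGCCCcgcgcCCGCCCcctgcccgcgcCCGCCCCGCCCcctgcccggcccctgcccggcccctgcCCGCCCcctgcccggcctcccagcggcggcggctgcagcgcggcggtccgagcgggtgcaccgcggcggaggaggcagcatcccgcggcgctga
COL15A1, chr9:98943657-98943956, plus strand: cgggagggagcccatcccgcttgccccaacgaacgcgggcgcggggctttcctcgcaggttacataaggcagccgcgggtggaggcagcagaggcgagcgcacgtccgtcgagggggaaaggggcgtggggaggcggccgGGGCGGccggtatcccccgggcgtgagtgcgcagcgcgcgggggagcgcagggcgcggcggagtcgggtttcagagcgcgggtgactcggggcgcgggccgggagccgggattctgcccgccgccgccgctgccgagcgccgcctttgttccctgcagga
LOX, chr5:122078210-122078509, minus strand: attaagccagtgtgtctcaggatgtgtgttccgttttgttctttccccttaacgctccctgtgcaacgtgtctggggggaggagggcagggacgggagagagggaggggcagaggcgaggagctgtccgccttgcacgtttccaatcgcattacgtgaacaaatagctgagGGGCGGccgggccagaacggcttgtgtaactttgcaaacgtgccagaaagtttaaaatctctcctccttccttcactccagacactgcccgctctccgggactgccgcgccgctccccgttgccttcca
COL4A1 and COL4A2, the bases their 300-base windows share, chr13:110307108-110307333, plus strand: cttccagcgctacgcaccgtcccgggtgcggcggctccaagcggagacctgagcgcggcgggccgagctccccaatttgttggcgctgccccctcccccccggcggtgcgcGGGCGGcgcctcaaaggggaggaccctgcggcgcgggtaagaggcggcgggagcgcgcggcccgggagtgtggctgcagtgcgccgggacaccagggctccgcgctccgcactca

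The COL18A1 window was 86.67% G and C and held 9 GC boxes, the COL15A1 window 76% and 1, and the LOX window 58% and 1. Of the other members that rose in both steps, COL24A1 had 0 GC boxes in its window, LAMA5 5 and LAMC1 3. The overlap of the COL4A1 and COL4A2 windows was 226 bases long and held 1. Promoters were matched for 41 of 56 members. The GC box occurred in 28 of the 41, and in 44.95% of 35116 RefSeq promoters of the same length. The full palindromic estrogen response element was found in 0 of 41 (0.05695% of all promoters). The estrogen half-site GGTCA was in 8 (37.38% of all), namely COL11A1, COL6A2, COL6A3, COL7A1, COL8A2, FBLN2, FBLN5 and LAMA2. The AP-1 site TGANTCA was in 1, POSTN (7.709% of all), and the TATA box TATAAA in 4, COL13A1, COL6A2, COL7A1 and POSTN (11.53% of all). Both strands were searched, and these matches describe the letters of the windows only.

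The first comparison asked which matrix genes E2 changed in the doxycycline-treated ERα line. COL18A1, whose C-terminal fragment endostatin inhibits vessel growth, rose from undetected to well detected, and COL27A1, a fibrillar collagen of cartilage, rose 2.77-fold. THBS1, the matricellular glycoprotein thrombospondin 1, fell. In all, 8 members rose, 5 fell and 43 did not pass the test (limma on all 18 arrays, Benjamini-Hochberg adjusted p below 0.05 over 13505 genes, 2-sided; changes below are log2 changes ± SE with 3 arrays a group). That was 14.3% of members higher and 8.93% lower, against 10.9% of all genes higher and 11.1% lower. These counts depended on the processing. Not counting fits that left out 1 array, COL8A1 was called lower in 6 alternatives (adjusted p from 0.00636 to 0.0443). LAMA4 and COL9A2 were called lower in 3 each and FN1 in 2. FBLN1 and FBLN5 were called higher with the mean of their probes (adjusted p = 0.0378 and 0.0348). The median change was -0.07 over members and -0.03 over all genes, and uncalled members lay between -0.53 and 0.68.

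COL18A1 read 5.84, 5.87 and 6.17 on the arrays with doxycycline alone and 10.52, 10.70 and 10.65 with E2. It was detected on 0 of 3 and then 3 of 3 arrays, the groups were far apart, and the rise was at least 19.8-fold (4.66 ± 0.23 as fitted, adjusted p = 9.24e-10). The bound takes, for the dim group, the lowest detected signal on each array, which lay between 6.08 and 6.52. COL27A1 read 6.70, 7.29 and 6.89 without E2 and 8.26, 8.66 and 8.36 with it, a rise of 1.47 ± 0.21 (adjusted p = 8.21e-05). COL24A1, another fibrillar collagen, read 9.78, 9.91 and 9.64 and then 10.62, 10.76 and 10.62 (0.89 ± 0.10, adjusted p = 7.43e-06). COL6A1, a chain of the beaded filaments, read 11.97, 12.09 and 12.06 and then 12.71, 13.00 and 12.85 (0.81 ± 0.12, adjusted p = 0.000147). In each of these genes every array with E2 was higher than every array without it.

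THBS1 read 13.38, 13.62 and 13.58 with doxycycline alone and 12.58, 12.52 and 12.30 with E2, a fall of 1.06 on the log2 scale (SE 0.17, adjusted p = 0.000247). COL10A1, the network collagen of hypertrophic cartilage, read 7.84, 8.33 and 8.37 and then 7.19, 7.62 and 7.26 (-0.83 ± 0.22, adjusted p = 0.0118). Both genes were lower on all 3 arrays with E2, with no overlap. The remaining calls were smaller: COL16A1 (0.79 ± 0.21), LAMA5 (0.67 ± 0.16), LOX (0.59 ± 0.15) and LAMC1 (0.31 ± 0.10) rose, while LAMB1 (-0.43 ± 0.10), LAMB2 (-0.35 ± 0.08) and COL5A2 (-0.30 ± 0.10) fell. The LAMC1 call was lost in 14 of 18 fits that each left out 1 array (adjusted p up to 0.180), the COL5A2 call in 7 (up to 0.138), and the COL10A1 call without doxycycline array 6 or E2 array 7 (up to 0.0516). LAMB1 and LAMB2 did not pass with a median shift in place of quantile normalization (adjusted p = 0.0870 and 0.0549), nor LAMB1 with the mean of its probes (0.261).

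The 4 fibroblast markers PDGFRA, PDGFRB, FAP and THY1 were detected on all arrays, and their summed linear level was 16036 to 19025 with doxycycline and 8737 to 8991 with E2 in the ERα line. Of these, PDGFRA fell by 1.64, PDGFRB by 0.74 and THY1 by 0.65 on the log2 scale, and FAP did not pass (adjusted p = 0.554). Of the 7 detected osteoblast-lineage and mesenchymal markers, the osteoblast regulator RUNX2 fell by 1.32 on the log2 scale (adjusted p = 2.68e-07) and CDH2 by 0.63 in the same comparison, and VIM, SPARC, ALPL, BGLAP and TWIST1 did not pass. The endothelial markers VWF and PECAM1 summed to 1349 to 1524 without and 3674 to 4488 with E2, of which VWF rose by 1.75 (adjusted p = 1.99e-06), while the defining marker CDH5 was detected on 0 arrays. The part of these markers in the matrix changes was not tested.

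**Figure D1:**
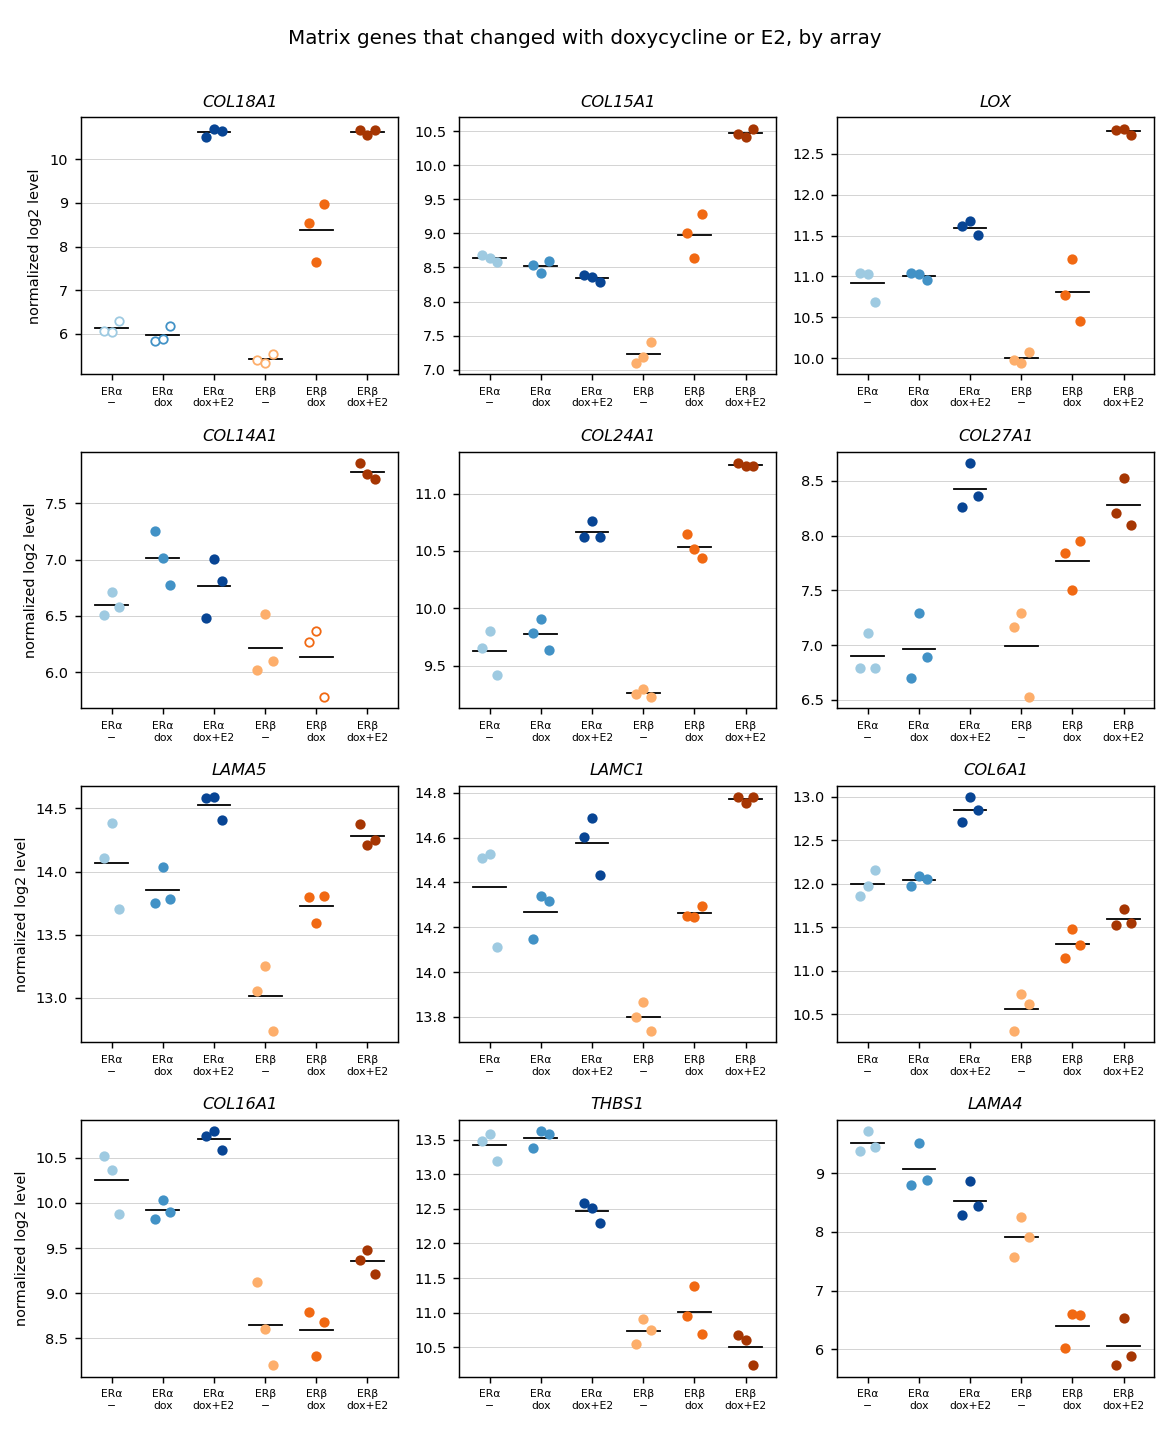
Normalized log2 level (y) of 12 matrix genes on each of 18 arrays, by group (x; − without doxycycline, dox with it, dox+E2 with both); bars are group means and open points mark groups in which the probe was detected on 0 of 3 arrays. COL18A1 is near 6 or below wherever open and near 10.6 in both E2 groups, while COL15A1 and COL14A1 reach their highest levels on the ERβ arrays with E2.

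The same question was asked of the ERβ line. COL18A1, LOX, COL14A1 and COL15A1 each rose more than 2-fold, and the type I collagen chain COL1A1 fell. Of the 56 members, 9 rose, 1 fell and 46 did not pass. The 16.1% of members higher stood against 6.98% of all genes, and the 1.79% lower against 6.84%. Both counts depended on the processing. THBS1 (-0.50 ± 0.17, adjusted p = 0.0662) was also called lower with a median shift (0.0455). With the authors' processed values THBS1 and LAMB1 were called lower, and 13 members were higher and 3 lower. Not counting fits that left out 1 array, COL5A1 and COL6A1 were called higher in 3 alternatives each. COL27A1 and COL9A2 were called higher in 2 each. Among members, 5 of 32 collagens, 2 of 9 laminins and 2 of 15 other proteins rose. The median change was 0.05 over members (0.01 with changes against an undetected group set to their bound) and -0.03 over all genes, and uncalled members lay between -0.50 and 0.51.

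COL18A1 read 8.54, 7.64 and 8.97 on the ERβ arrays with doxycycline alone and 10.67, 10.55 and 10.67 with E2, a 4.75-fold rise (2.25 ± 0.23, adjusted p = 6.88e-06). LOX, the enzyme that crosslinks collagen and elastin, read 10.77, 11.22 and 10.45 and then 12.80, 12.80 and 12.73, a 3.90-fold rise (1.96 ± 0.15, adjusted p = 2.81e-07). The 3 arrays with E2 lay close together and above all arrays without it in both genes. COL15A1, the other collagen of the COL18A1 type, read 9.01, 8.64 and 9.29 and then 10.45, 10.41 and 10.53 (1.49 ± 0.13, adjusted p = 1.40e-06). COL14A1, a fibril-associated collagen, read 6.27, 6.36 and 5.78, where it was detected on 0 arrays, and then 7.86, 7.76 and 7.72. That rise was at least 2.7-fold (1.64 ± 0.18 as fitted, adjusted p = 1.25e-05).

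COL24A1 read 10.65, 10.52 and 10.43 without E2 and 11.26, 11.24 and 11.24 with it (0.71 ± 0.10, adjusted p = 0.000136). COL16A1, also fibril-associated, read 8.79, 8.30 and 8.68 and then 9.37, 9.48 and 9.21 (0.76 ± 0.21, adjusted p = 0.0204). Both were higher on every array with E2. The smaller rises were those of LAMA5 (0.55 ± 0.16), LAMC1 (0.51 ± 0.10) and FBLN5, an elastic-fibre fibulin (0.35 ± 0.10). COL1A1 fell by 0.65 on the log2 scale (SE 0.13, adjusted p = 0.00332). Its partner chain COL1A2 had 2 probes, detected on at most 1 array. The calls of FBLN5 and LAMA5 were each lost in 5 of 18 fits that left out 1 array (adjusted p up to 0.117 and 0.101), and COL16A1 in 3, without doxycycline array 5 or E2 array 7 or 8 (up to 0.0880). Fitted on the 6 arrays alone, COL1A1 and FBLN5 did not pass (adjusted p = 0.0658 and 0.0757), and FBLN5 did not with a median shift (0.226). In this comparison the summed fibroblast markers were 3451 to 3736 without and 2790 to 2824 with E2. Among them PDGFRA fell by 0.58 on the log2 scale (adjusted p = 0.0134), and PDGFRB, FAP and THY1 did not pass. RUNX2 fell by 0.74 and CDH2 by 0.35 on the log2 scale, and the other 5 osteoblast-lineage and mesenchymal markers did not pass. The endothelial markers summed to 1912 to 2554 without and 3253 to 4037 with E2, of which VWF rose by 0.79 (adjusted p = 0.00513). LYZ, a marker of blood cells, rose by 1.11 (adjusted p = 0.0148), while PTPRC, CD3E and HBB were detected on 0 arrays. The part of these markers was not tested.

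COL18A1, COL24A1, COL16A1, LAMA5, LAMC1 and LOX rose with E2 in both lines, and an interaction contrast tested whether the responses differed. The ERβ response minus the ERα response was called higher for 3 members and lower for 1, or 5.36% and 1.79%, against 3.37% and 5.32% of all genes; the other 52 did not pass. COL14A1 (1.89 ± 0.25, adjusted p = 0.000165), COL15A1 (1.67 ± 0.18, adjusted p = 2.79e-05) and LOX (1.37 ± 0.21, adjusted p = 0.000499) rose more in the ERβ line. COL14A1 was undetected on the ERβ arrays with doxycycline alone, so the size of its difference rests on values below detection. In the ERα line COL15A1 read 8.54, 8.42 and 8.60 without and 8.39, 8.35 and 8.29 with E2, and COL14A1 read 7.26, 7.01 and 6.77 and then 6.48, 7.01 and 6.81. Neither passed the test there (-0.18 ± 0.13 and -0.25 ± 0.18, adjusted p = 0.397 and 0.387). LOX in the ERα line read 11.04, 11.03 and 10.95 and then 11.62, 11.67 and 11.50, a smaller rise than in the ERβ line by that test.

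COL18A1 differed in the opposite direction (-2.42 ± 0.32, adjusted p = 0.000171), and its level with E2 was 10.62 in the ERα and 10.63 in the ERβ line on average. The lines differed instead before E2, at 5.96 (undetected) and 8.38, so the fitted size of this difference depends on values below detection. COL27A1 rose in the ERα line, but the difference from its 0.51 ± 0.21 in the ERβ line did not pass (-0.96 ± 0.29, adjusted p = 0.0587), nor did that of COL6A1 (-0.53 ± 0.17, adjusted p = 0.0788). Both calls depended on the processing. The COL27A1 difference passed with a median shift (adjusted p = 0.0304), without background correction (0.0487), among probes detected on all 18 arrays (0.0455), on the arrays compared alone (0.0478) and with the authors' processed values (0.00549), and that of COL6A1 without background correction (0.0399) and with the authors' values (0.000962). With the replicate number as a block, COL27A1 (adjusted p = 0.0270) and COL6A1 (0.00845) passed as well. In that fit COL9A2 fell with E2 in the ERα line (-0.24, adjusted p = 0.0276) and rose in the ERβ line (0.23, 0.0397). Its difference was 0.47 (adjusted p = 0.00861 with the block, 0.00173 with the authors' values). Without the block, the fit used here called none of these COL9A2 changes. Without ERβ doxycycline array 5, 8 members were called in the difference of E2 responses in place of 4.

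**Figure D2:**
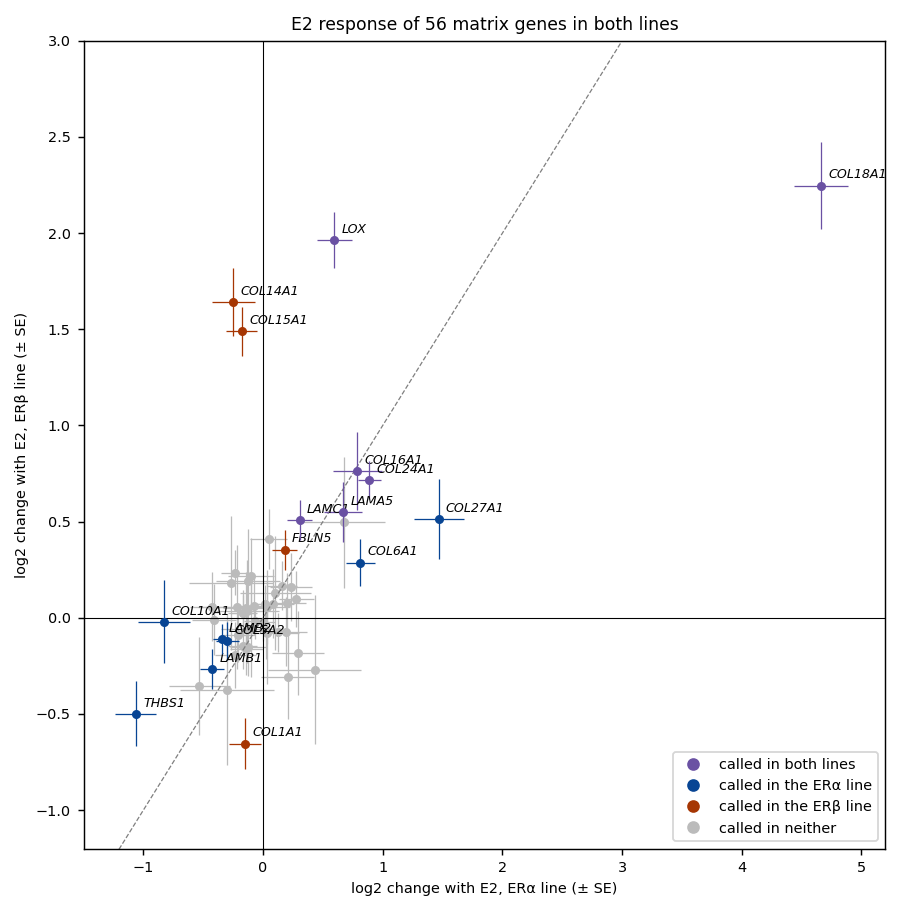
Log2 change with E2 in the ERα line (x) against that in the ERβ line (y) for 56 matrix genes, each with its SE from 3 arrays a group; colours give the line in which the change passed the test and the dashed line marks equal changes. COL18A1 lies far right of the dashed line at 4.66 and 2.25, and LOX, COL14A1 and COL15A1 lie above it.

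With doxycycline alone, no member passed the test in the ERα line. The limma fit called 0 higher and 0 lower of 56, against 0.00740% of all genes in each direction. At an unadjusted p below 0.05 there was 1 member, COL14A1, and 705 of 13505 genes, and the smallest adjusted p of a member was 0.920. All 56 changes lay between -0.45 and 0.73. The widest were in dim probes. ELN, the elastin gene, read 4.92, 5.58 and 5.38 without doxycycline and 6.37, 5.95 and 5.75 with it (0.73 ± 0.35), and was detected on 0 and 1 arrays. FBLN2, a fibulin, read 6.55, 5.99 and 5.71 and then 6.11, 5.59 and 5.18 (-0.45 ± 0.34), detected on 1 and 0 arrays, with overlapping groups.

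COL4A3, a basement membrane collagen chain, read 7.06, 7.24 and 6.27 and then 6.60, 6.54 and 6.28 (-0.38 ± 0.30). LAMA4 read 9.37, 9.71 and 9.44 and then 8.79, 9.52 and 8.88 (-0.44 ± 0.26). COL14A1 read 6.50, 6.71 and 6.58 and then 7.26, 7.01 and 6.77 (0.42 ± 0.18). These groups overlap for COL4A3 and LAMA4 and are apart for COL14A1. COL16A1 read 10.52, 10.37 and 9.88 and then 9.82, 10.03 and 9.90 (-0.34 ± 0.21), again overlapping. With the authors' processed values LAMA4 was called lower, so that 1 member was called in place of 0.

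With doxycycline in the ERβ line, 11 members rose, 8 fell and 37 did not pass, or 19.6% higher and 14.3% lower against 9.90% and 10.7% of all genes. COL18A1, COL15A1, COL24A1 and COL8A1 rose more than 2-fold and the laminin chain LAMA4 fell more than 2-fold. Collagens made up 7 of the rises and 2 of the falls, laminins 2 and 2, and the other proteins 2 and 4. The median change was -0.02 over members (0 with changes against an undetected group set to their bound) and -0.04 over all genes. The E2 comparison of this line uses the same doxycycline arrays, as the group subtracted, so an error in them moves both changes in opposite directions.

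COL18A1 read 5.40, 5.33 and 5.53 on the ERβ arrays without doxycycline, detected on 0 of 3, and 8.54, 7.64 and 8.97 with it. The rise was at least 3.93-fold (2.96 ± 0.23 as fitted, adjusted p = 1.84e-07). COL15A1 read 7.11, 7.19 and 7.41 and then 9.01, 8.64 and 9.29 (1.74 ± 0.13, adjusted p = 1.19e-07). In both, array 5 was the lowest of the doxycycline arrays and still above all arrays without it. COL24A1 read 9.25, 9.30 and 9.23 and then 10.65, 10.52 and 10.43 (1.27 ± 0.10, adjusted p = 2.04e-07). COL8A1, a chain of the short-chain network collagen, read 8.49, 8.57 and 8.14 and then 9.87, 9.22 and 9.43 (1.10 ± 0.18, adjusted p = 0.000399). Its partner COL8A2 stood at -0.04 ± 0.19 and did not pass.

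LAMA4, the alpha chain of vascular and muscle laminins, read 7.57, 8.25 and 7.91 without and 6.01, 6.61 and 6.59 with doxycycline, where it was detected on 2 of 3 arrays (-1.51 ± 0.26, adjusted p = 0.000604). LUM, the proteoglycan lumican, read 13.86, 13.91 and 13.88 and then 12.96, 13.19 and 12.77 (-0.91 ± 0.09, adjusted p = 4.27e-06). All arrays with doxycycline were below all arrays without it in both genes. DCN, the related proteoglycan decorin, fell by 0.87 on the log2 scale (SE 0.27, adjusted p = 0.0322) and was detected on 1 of 3 arrays with doxycycline. COL9A2 (-0.86 ± 0.12), COL5A1 (-0.80 ± 0.16), LAMC3 (-0.66 ± 0.22), the fibronectin gene FN1 (-0.66 ± 0.18) and the lysyl oxidase LOXL1 (-0.39 ± 0.09) also fell. The other rises were LOX (0.81 ± 0.15), COL27A1 (0.77 ± 0.21), COL6A1 (0.75 ± 0.12), LAMA5 (0.71 ± 0.16), LAMC1 (0.46 ± 0.10), COL6A2 (0.41 ± 0.13) and FBLN1 (0.33 ± 0.10).

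Several of the smaller calls were lost when 1 array was left out. LAMC3 was lost in 11 of 18 such fits (adjusted p up to 0.203), some of them without ERα arrays, which are not part of this comparison. COL6A2, DCN and FBLN1 were lost in 4 each (up to 0.148, 0.122 and 0.145). COL27A1 was lost without ERβ array 3, 4 or 6 (up to 0.0697) and FN1 without array 2 or 6 of the ERβ line (up to 0.0785). Fitted on the 6 arrays alone, COL27A1, COL6A2, FBLN1, FN1, LAMC3 and LOXL1 did not pass (adjusted p from 0.0585 for LOXL1 to 0.162 for COL6A2); with a median shift DCN, FBLN1 and LOXL1 did not, and with the mean of all probes COL6A2, LOXL1 and LUM did not (LUM 0.136). Beside these changes FAP fell by 1.24, PDGFRA by 0.79 and THY1 by 0.57 on the log2 scale, while PDGFRB did not pass (adjusted p = 0.141). The 4 fibroblast markers summed to 5309 to 5856 without and 3451 to 3736 with doxycycline. Of the 7 osteoblast-lineage and mesenchymal markers, RUNX2 fell by 1.13, ALPL by 0.64 and CDH2 by 0.60, SPARC rose by 0.67 (adjusted p = 0.000628), and VIM, TWIST1 and BGLAP did not pass. LYZ rose by 0.87 (adjusted p = 0.0404). The part of these markers was not tested.

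**Figure D3:**
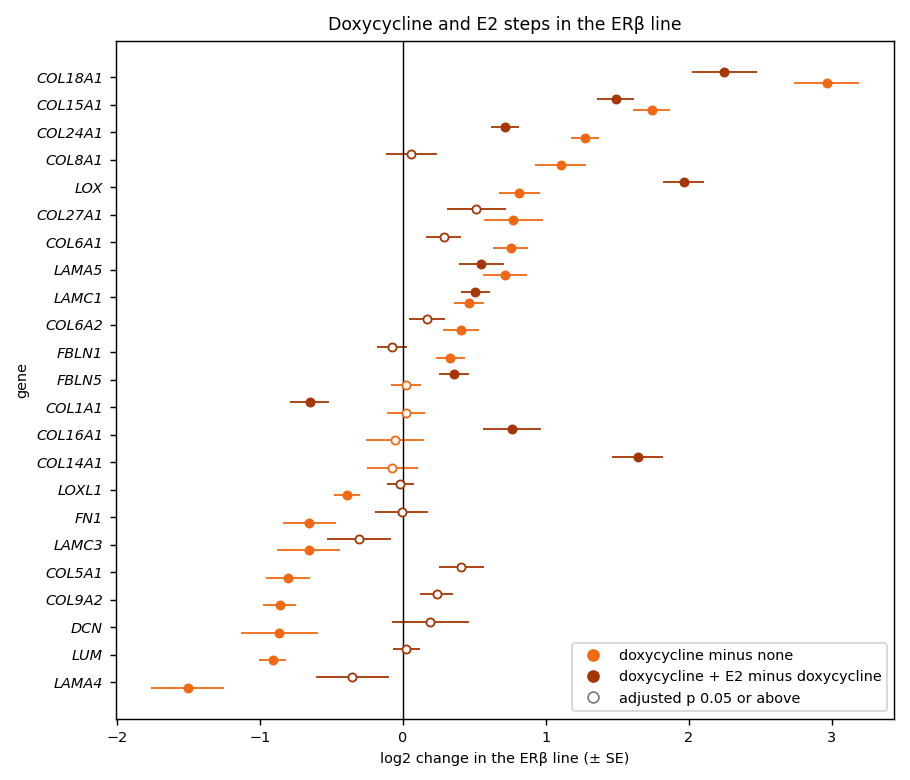
Log2 change ± SE in the ERβ line with doxycycline (orange) and with E2 added to it (brown), for the 23 matrix genes called in either comparison; open points did not pass the test, and both changes share the 3 doxycycline arrays. COL18A1, COL15A1, COL24A1, LOX, LAMA5 and LAMC1 are filled and right of 0 in both, COL14A1, COL16A1 and FBLN5 with E2, and LAMA4, LUM and DCN are filled left of 0 with doxycycline.

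The doxycycline responses were then compared between lines. The response of the ERβ line exceeded that of the ERα line for 8 members and fell below it for 2, or 14.3% and 3.57% against 5.34% and 4.32% of all genes, and 46 did not pass. COL18A1 differed by 3.14 ± 0.32 (adjusted p = 8.89e-06), with the ERα arrays undetected in both states (6.05, 6.04 and 6.30 without and 5.84, 5.87 and 6.17 with doxycycline), so its size depends on values below detection. COL15A1 differed by 1.86 ± 0.18 (adjusted p = 5.62e-06), after 8.69, 8.64 and 8.57 and then 8.54, 8.42 and 8.60 in the ERα line. COL8A1, at 12.93, 13.24 and 12.76 and then 12.91, 13.07 and 12.72 in the ERα line, differed by 1.18 ± 0.25 (adjusted p = 0.00669). COL24A1, at 9.65, 9.81 and 9.42 and then 9.78, 9.91 and 9.64, differed by 1.12 ± 0.14 (adjusted p = 6.41e-05). In the ERα line the arrays with and without doxycycline overlapped for COL8A1 and COL24A1.

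LAMA5 (0.92 ± 0.22), LOX (0.73 ± 0.21), COL6A1 (0.71 ± 0.17) and LAMC1 (0.58 ± 0.15) also differed upward, and COL9A2 (-0.87 ± 0.16) and LUM (-0.86 ± 0.13) downward. LOX was lost in 11 of 18 fits that left out 1 array (adjusted p up to 0.0887) and LAMC1 in 4 (up to 0.0600); COL6A1 did not pass with a median shift (0.0650), LUM with the mean of its probes (0.547), and LAMA5, LAMC1 and LOX on the 12 arrays compared (0.0548 to 0.109). LAMA4 fell in the ERβ line, but its difference between lines was -1.06 ± 0.36 and did not pass (adjusted p = 0.0854). It passed with the mean of its probes (adjusted p = 0.0166), with the authors' processed values (0.00151) and with the replicate number as a block (0.000554). Not counting fits that left out 1 array, FBLN1 and COL6A2 were called higher and COL5A1 lower in 3 alternatives each. LAMA2 and LAMC3 were called lower in 2 each. Only the authors' values called COL11A1 and COL27A1 higher and COL6A5, DCN, FN1 and LOXL1 lower.

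The last comparison set the uninduced lines against each other. Each receptor was carried by 1 line, so receptor and line cannot be told apart here or in the differences between responses. ESR2 was already detected on all 3 ERβ arrays without doxycycline (11.26 on average). These arrays are also the group subtracted in the doxycycline comparison of that line, so an error in them moves both changes in opposite directions. Most matrix genes were lower in the ERβ than in the ERα line without doxycycline: 44 members were lower, 4 higher and 8 did not pass, or 78.6% lower and 7.14% higher against 24.1% and 26.4% of all genes. Among the 42 members detected on all 18 arrays 37 were lower and 3 higher, against 25.6% and 30.7% of the 10661 genes detected on all 18. By family, 26 of 32 collagens, 7 of 9 laminins and 11 of 15 other proteins were lower. The median difference was -0.85 over members, -0.71 with undetected groups set to their bound, and 0.04 over all genes. A detection filter passed through the ERα arrays alone favours a lower ERβ level, so the counts over the 56 members describe the probes that passed.

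COL1A1, the major chain of bone collagen, read 15.13, 15.12 and 14.92 on the ERα arrays and 9.86, 9.99 and 9.64 on the ERβ arrays, 37.4-fold lower (-5.22 ± 0.13, adjusted p = 4.08e-13). COL8A1 read 12.93, 13.24 and 12.76 against 8.49, 8.57 and 8.14, 23.9-fold lower (-4.58 ± 0.18, adjusted p = 3.78e-11). COL11A1, a fibrillar chain that copolymerises with type V, read 14.00, 14.14 and 13.82 against 10.22, 10.50 and 10.37, 12.3-fold lower (-3.62 ± 0.12, adjusted p = 4.87e-12). BGN, the proteoglycan biglycan, read 9.65, 9.69 and 9.12 against 6.50, 6.14 and 5.72, where it was detected on 0 arrays, and was at least 8.44-fold lower (adjusted p = 8.66e-09). In all 4 genes the 9 arrays of one line did not overlap the 9 of the other. All 4 calls held under every alternative run, but the sizes depended on the processing. The log2 difference ran from -5.30 to -4.98 for COL1A1 and from -4.68 to -4.01 for COL8A1. For COL11A1 it ran from -3.70 to -2.26, and for BGN from -3.56 to -1.88.

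**Figure D4:**
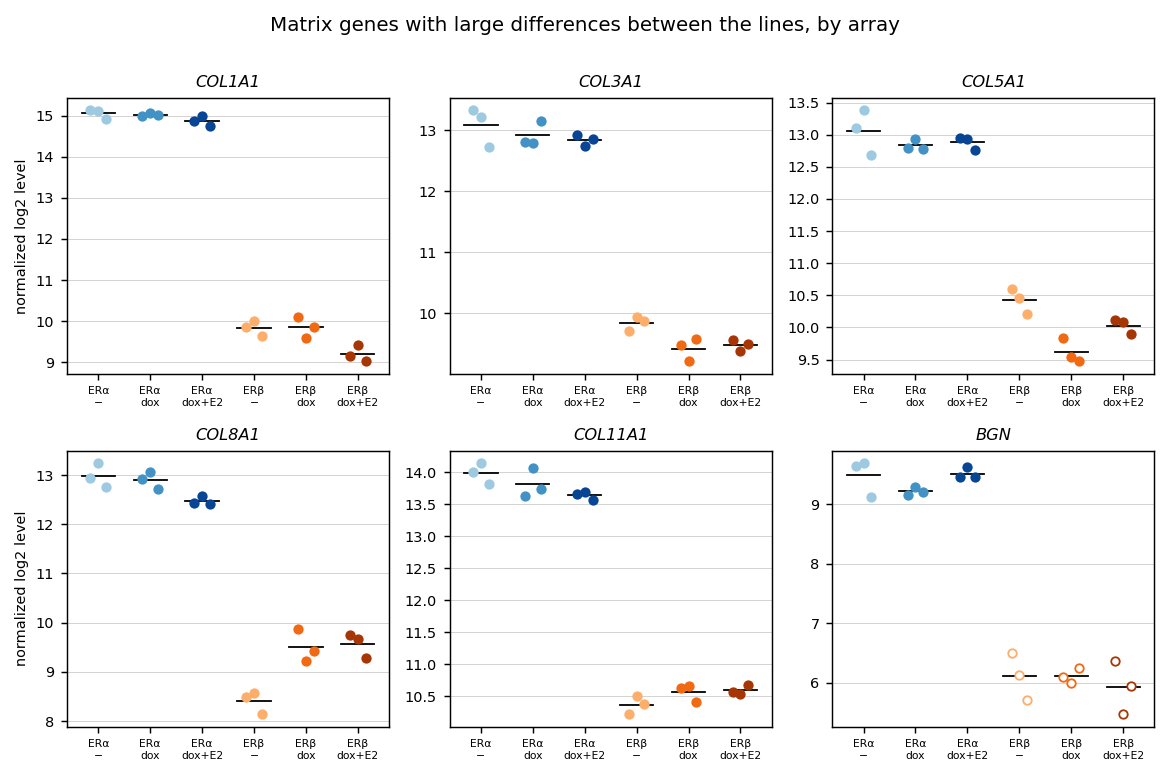
Normalized log2 level (y) of 6 matrix genes on each of 18 arrays, by group (x); bars are group means and open points mark groups in which the probe was detected on 0 of 3 arrays. COL1A1 lies between 14.76 and 15.13 on all ERα arrays and between 9.03 and 10.10 on all ERβ arrays, and BGN is undetected on every ERβ array.

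Of the other fibrillar collagens, COL3A1 was 9.52-fold lower (-3.25 ± 0.15), COL5A1 6.22-fold (-2.64 ± 0.16), COL5A2 1.82-fold (-0.86 ± 0.10), COL24A1 1.29-fold (-0.37 ± 0.10) and COL11A2 1.46-fold (-0.54 ± 0.19). COL27A1 (0.10 ± 0.21) and COL2A1 (0.00) did not pass. Among network and basement membrane types, COL10A1 was at least 3.87-fold lower and COL4A3 at least 1.36-fold, COL15A1 2.64-fold and COL8A2 2.39-fold. COL4A1 (-0.63 ± 0.14) and COL4A2 (-0.63 ± 0.10), the head-to-head pair shown above, differed alike and did not pass in any other comparison. COL4A5 (-0.49 ± 0.19) and COL4A6 (-0.88 ± 0.25), a second such pair on the X chromosome, were both lower. COL18A1 was called lower (-0.71 ± 0.23), but it was undetected in both groups, so no fold is given.

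The beaded-filament chains COL6A3 (-1.73 ± 0.12), COL6A1 (-1.44 ± 0.12) and COL6A2 (-0.64 ± 0.13) were lower by unequal amounts, while COL6A5 was higher (0.74 ± 0.27). Fibril-associated types COL9A2 (-2.31 ± 0.12), COL16A1 (-1.61 ± 0.21), COL22A1 (-1.36 ± 0.18), COL12A1 (-1.16 ± 0.17) and COL20A1 (-0.89 ± 0.15) were lower, and COL14A1 (-0.39 ± 0.18) did not pass. Over the alternatives the COL12A1 difference ran from -1.33 to -0.53. COL7A1, the anchoring-fibril collagen, was lower (-0.63 ± 0.18) and the transmembrane COL13A1 higher (0.47 ± 0.18). Among the other proteins THBS1 was 6.43-fold (-2.69 ± 0.17) and LOXL1 5.32-fold lower (-2.41 ± 0.09), followed by POSTN, the fibrillin FBN2 (-0.99 ± 0.16), LOX (-0.92 ± 0.15), FN1 (-0.78 ± 0.18), LUM (-0.58 ± 0.09), the matricellular TNC (-0.58 ± 0.15), FBLN5 (-0.42 ± 0.10) and FBLN1 (-0.38 ± 0.10). POSTN was undetected in the ERβ group (adjusted p = 0.00795) and allows no fold. DCN was higher (0.70 ± 0.27), with overlapping groups, as COL4A6, COL7A1 and COL11A2 also had.

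In fits that each left out 1 of 18 arrays, COL4A5 was lost in 11 (adjusted p up to 0.191), DCN in 6 (0.166), COL13A1 and COL6A5 in 4 each (0.170 and 0.120), COL11A2 without ERα array 1 or 2 or ERβ array 3 (0.147), COL18A1 without ERα array 3 or ERβ array 2 (0.0612) and COL4A6 without ERβ array 1 (0.0506). COL4A5, COL4A6, COL7A1, COL11A2, COL13A1, DCN and FBLN5 did not pass on the 6 arrays alone, nor COL6A2, COL18A1, LAMB3 and LUM with the mean of their probes; with that mean the FBLN1 difference turned to 0.18 (adjusted p = 0.148), and with a median shift FBLN1 and DCN did not pass. The 4 fibroblast markers moved with the line: THY1 differed by -2.26, PDGFRA by -1.79, FAP by -1.66 and PDGFRB by -0.80, and their summed linear level was 17622 to 18297 on the ERα and 5309 to 5856 on the ERβ arrays. Of the epithelial markers, EPCAM differed by -2.22, CDH1, detected on 6 arrays, by 0.97 (adjusted p = 0.00263), and KRT5 was undetected. The endothelial markers summed to 1416 to 2003 on the ERα and 2546 to 3301 on the ERβ arrays, of which VWF differed by 0.85 (adjusted p = 0.000761). Of the osteoblast-lineage and mesenchymal markers, ALPL (-1.38) and CDH2 (-1.13) were lower, TWIST1 (0.56) was higher, and VIM, RUNX2, SPARC and BGLAP did not pass, while of the blood markers PTPRC, CD3E and HBB were detected on 0 arrays and LYZ on 16. Their part in the matrix difference was not tested, and fewer cells making a transcript and less of it per cell cannot be told apart in these RNA pools.

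**Figure D5:**
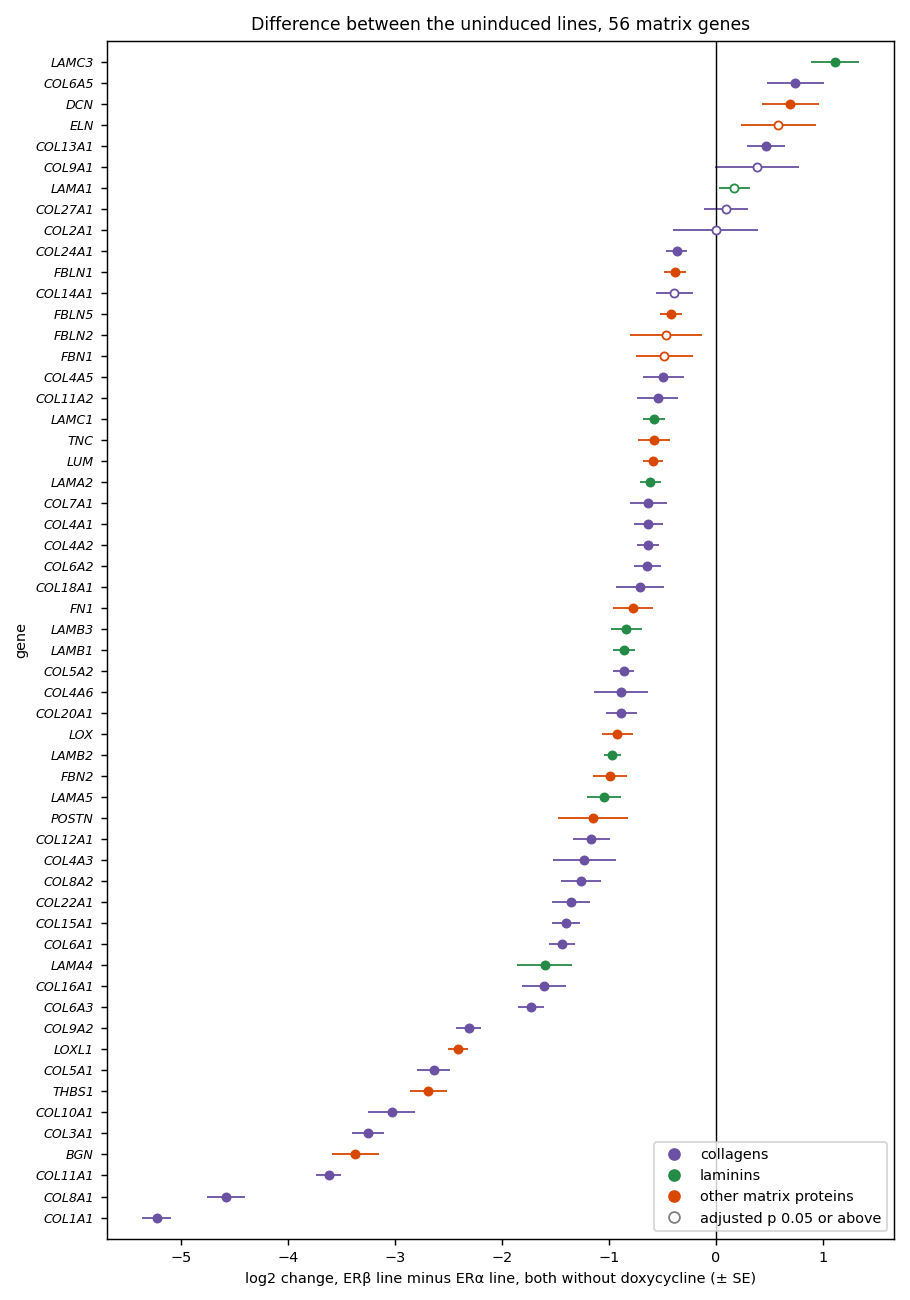
Log2 difference ± SE between the ERβ and the ERα line without doxycycline (x) for the 56 matrix genes in order (y), coloured by family; open points did not pass the test. The order runs from COL1A1 at -5.22 to LAMC3 at 1.11, with 48 of 56 values below 0.

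Laminin chains were read together because they assemble into trimers. The alpha chain LAMA5 and the gamma chain LAMC1, which together with a beta chain form laminin of most adult basement membranes, passed the test in the same direction in each comparison in which either was called. This pair was picked after its values were seen, and some of these calls were fragile. In 18 fits that each left out 1 array, LAMC1 with E2 in the ERα line was lost in 14. LAMA5 with E2 in the ERβ line was lost in 5, and LAMC1 in the difference of doxycycline responses in 4. LAMA5 read 14.11, 14.38 and 13.71 in the ERα line without doxycycline, 13.75, 14.03 and 13.78 with it and 14.58, 14.59 and 14.41 with E2. In the ERβ line it read 13.05, 13.26 and 12.74, then 13.79, 13.59 and 13.80, then 14.38, 14.21 and 14.25. LAMC1 read 14.51, 14.52 and 14.11, then 14.15, 14.34 and 14.32, then 14.60, 14.69 and 14.43 in the ERα line. In the ERβ line it read 13.80, 13.87 and 13.74, then 14.25, 14.24 and 14.30, then 14.78, 14.75 and 14.78. Both chains stepped up at each ERβ state without overlap of the groups.

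The beta chains gave other values with E2 and doxycycline. LAMB1 and LAMB2 stood at -0.27 ± 0.10 and -0.11 ± 0.08 with E2 and at -0.15 ± 0.10 and 0.16 ± 0.08 with doxycycline in the ERβ line, none of which passed, and both fell with E2 in the ERα line. In the line comparison the beta chains were lower together with LAMA5 and LAMC1, LAMB3 among them (-0.84 ± 0.14). LAMA1 (0.17 ± 0.15) was the laminin that did not pass there, LAMA2 was lower (-0.61 ± 0.10), as were LAMA4 (-1.60 ± 0.26), LAMA5 (-1.05 ± 0.16), LAMB1 (-0.86 ± 0.10), LAMB2 (-0.97 ± 0.08) and LAMC1 (-0.58 ± 0.10), and LAMC3 was higher (1.11 ± 0.22). Whether beta chains differed in response from alpha or gamma chains was not tested.

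Some chains that can share a collagen trimer passed the test without their partners, while others moved together. COL6A1 and COL6A2 both rose with doxycycline in the ERβ line, and COL4A1 and COL4A2 differed alike between the lines. With E2 in the ERα line COL6A1 rose by 0.81, while COL6A2 (0.16 ± 0.13) and COL6A3 (-0.17 ± 0.12) did not pass. With doxycycline in the ERβ line COL5A1 fell by 0.80, while COL5A2 (-0.10 ± 0.10) and COL11A1 (0.20 ± 0.12), a type XI chain, did not pass. Whether these chains differed from each other was not tested.

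Of the 56 members 21 had more than 1 kept probe, 84 probes in all. The second COL18A1 probe was detected on 3 arrays and did not pass in any comparison (0.41 with E2 in the ERα line, -0.36 with E2 and -0.16 with doxycycline in the ERβ line), so the COL18A1 changes rest on 1 probe. All 3 COL8A1 probes rose with doxycycline in the ERβ line (1.10, 1.07 and 1.85) and were lower in it without doxycycline (-4.58, -2.83 and -5.54). Both sets of changes use the same ERβ arrays without doxycycline. Both LAMA4 probes fell with doxycycline (-1.51 and -1.61). FBLN1 had called probes of opposite direction between the lines, at -0.38 for the brightest and 0.66 and 0.62 for a pair of others, and another FBLN1 probe rose by 1.97 with doxycycline in the ERβ line.

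Over the 6 group means the genes most like COL1A1 were TSPAN13, USP11 and VIM (Pearson r = 0.9997, 0.9996 and 0.9996), which follow the split between the lines in shape, not in size. Without doxycycline TSPAN13 averaged 12.74 in the ERα and 11.57 in the ERβ line, USP11 11.40 and 10.67, and VIM 16.11 and 15.98. The VIM difference did not pass the limma test (adjusted p = 0.0957). Those most like COL18A1 were STOX2, PHETA1 and PPP1R7 (r = 0.999, 0.997 and 0.995). STOX2 averaged 10.05, 9.90 and 12.63 through the 3 ERα states and 9.60, 11.48 and 12.72 through the ERβ states. These correlations describe 6 points and were picked from 13505 genes.

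Genes that process, bind and accompany the matrix were read from 3 lists. Of 30 enzymes and chaperones of collagen assembly 27 were measured. With doxycycline in the ERβ line 6 rose and 2 fell, against 9.90% and 10.7% of all genes: the lysyl oxidase LOXL4 (3.01 ± 0.12), the procollagen proteinases ADAMTS2 (1.26 ± 0.21) and BMP1 (0.87 ± 0.09), the lysyl hydroxylase PLOD2 (0.98 ± 0.12), the prolyl hydroxylase P4HA2 (0.85 ± 0.08) and TMEM38B (0.41 ± 0.11) rose, and P3H2 (-0.81 ± 0.14) and the collagen chaperone SERPINH1 (-0.51 ± 0.09) fell. With E2, 4 rose and 1 fell in the ERα line (10.9% and 11.1% of all genes), led by LOXL4 (1.76 ± 0.12) and BMP1 (1.05 ± 0.09), and 2 rose (PLOD2, 0.71 ± 0.12, and P4HA2, 0.31 ± 0.08) and 1 fell (LOXL3, -0.68 ± 0.18) in the ERβ line (6.98% and 6.84% of all genes). None of the 27 passed with doxycycline in the ERα line (0 calls). Without doxycycline 14 were lower in the ERβ line, among them P3H1 (-1.23 ± 0.14), P4HA1 (-1.10 ± 0.22) and SERPINH1 (-1.04 ± 0.09), and 2 were higher, PCOLCE (2.95 ± 0.14) and TMEM38B (0.32 ± 0.11), against 24.1% of all genes lower and 26.4% higher. The list's median difference there was -0.58.

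Of 28 matrix receptors 22 were measured. E2 raised 4 and lowered 3 in the ERα line, with the largest rises in ITGA9 (3.07 ± 0.30), SDC1 (1.75 ± 0.14) and SDC4 (1.33 ± 0.10), and raised 4 and lowered 2 in the ERβ line, with SDC4 at 1.44 ± 0.10. All genes were called at 10.9% and 11.1% in the ERα and at 6.98% and 6.84% in the ERβ line. Syndecans such as SDC1 and SDC4 are transmembrane heparan sulfate proteoglycans. ITGA2, the alpha chain of a collagen-binding integrin, fell with E2 in both lines (-0.55 ± 0.18 and -0.82 ± 0.18) and rose with doxycycline in the ERβ line (1.46 ± 0.18), as did ITGA1 (1.93 ± 0.20), the alpha chain of another. In that comparison 4 receptors rose and 2 fell, or 18.2% and 9.09% of the 22 against 9.90% and 10.7% of all genes. Between the lines 5 were higher and 4 lower in the ERβ line, or 22.7% and 18.2%, both below the shares of all genes (26.4% and 24.1%).

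Of 50 further matrix proteins 35 were measured. With doxycycline in the ERβ line 5 rose and 7 fell, or 14.3% and 20.0% against 9.90% and 10.7% of all genes, with FMOD, the proteoglycan fibromodulin, at 2.63 ± 0.12, MATN2 at 1.78 ± 0.14, TGFBI at -2.17 ± 0.14 and EPYC at -1.89 ± 0.37. E2 raised 7 and lowered 4 in the ERα line and raised 4 and lowered 1 in the ERβ line. That was 20.0% and 11.4% against 10.9% and 11.1% of all genes in the ERα line, and 11.4% and 2.86% against 6.98% and 6.84% in the ERβ line. NTN4 rose in both (1.45 ± 0.13 and 1.20 ± 0.13) and TGFBI fell in both (-1.53 ± 0.14 and -0.53 ± 0.14). Between the lines 12 were higher and 13 lower in the ERβ line, or 34.3% and 37.1% against 26.4% and 24.1% of all genes, with a median of -0.23 against 0.04 over all genes. Doxycycline in the ERα line gave 0 calls among the receptors and 0 among these proteins.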

How the data were processed

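Total RNA of 18 samples was labelled with biotin (750 ng each, per the labels' protocols) and hybridized to single-colour Illumina arrays. The authors deposited a table with 1 probe intensity per array, not normalized per the file headers, and a detection p-value beside it. The authors' second deposited table holds processed intensity values, with lumi named in the submitters' processing notes; the background correction and scaling behind it are not given in the sources used here, and it served only as an alternative. In the non-normalized table, arrays are numbered 1 to 9 within each line; arrays 4 to 9 are known by group only, and their replicate numbers, used for the replicate block alone, were inferred from the best rank match with the processed values.

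Intensities were background-corrected with the detection p-values, quantile-normalized and log2-transformed (neqc, offset 16, limma 3.58.1 in R 4.3.3). Probes were kept if they had 1 gene symbol and were detected (p below 0.01) on 3 or more of the 18 arrays, and each gene was represented by its brightest kept probe, which gave 13505 genes. Means of the 6 groups were fitted with lmFit and eBayes (residual degrees of freedom 12), with p-values adjusted by Benjamini-Hochberg over all genes for each of 7 comparisons. The replicate number was left out of this fit, and some changes that did not pass in it passed with that number as a block. Precision is limited by the number of arrays, and the SE of a member's change had a median of 0.164. Between 19834 and 22485 probes were detected per array. The fit was also run on simulated arrays whose noise was independent between arrays. They held no likeness between arrays of the same replicate number, so the fit was not tested in that setting.

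The members, the 3 gene lists (assembly enzymes and chaperones, receptors, other matrix proteins), the markers and the tests were chosen with earlier results of these data known. Every called member is named. Values on every array are given for the 6 members of largest change in each E2 and doxycycline comparison and the 4 of largest change in each other comparison, and for LAMA5 and LAMC1, which were added after their values were seen. Alternatives were another normalization, no background correction, a stricter detection filter, the mean of all probes, the compared arrays alone, the authors' values, a replicate block and leaving out each array.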

Additional observations from a re-analysis of the deposited data

Results flagged for a closer look

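These results are listed because a response differed between the lines by a test of the difference itself. For E2, the ERβ response minus the ERα response was 1.89 for COL14A1, 1.67 for COL15A1, 1.37 for LOX and -2.42 for COL18A1 on the log2 scale. COL14A1 was undetected in the ERβ line and COL18A1 in the ERα line with doxycycline alone, so both sizes rest on values below detection. For doxycycline, the same difference was 3.14 for COL18A1, 1.86 for COL15A1, 1.18 for COL8A1, 1.12 for COL24A1, 0.92 for LAMA5, 0.73 for LOX, 0.71 for COL6A1, 0.58 for LAMC1, -0.86 for LUM and -0.87 for COL9A2. COL18A1 was undetected in 3 of the 4 groups behind its value. Single outlying arrays were not tested.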

How the results depend on the processing

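Of 104 calls of members over the 7 comparisons, 69 passed with the same sign under every alternative run, and 1 reversed: the FBLN1 difference between the lines became 0.18 with the mean of its probes. A median shift lost 9 of 104 calls, no background correction 2, the mean of all probes 9, the compared arrays alone 19, the authors' processed values 0 (with the block 1, COL18A1 between the lines, adjusted p = 0.0606), and detection on all 18 arrays 0 of 86. Members called with the authors' values were 16 for E2 in the ERβ line, 1 for doxycycline in the ERα line, 11 for the E2 difference and 22 for the doxycycline difference. Leaving out 1 array gave 10 to 13 members for E2 in the ERα line, 7 to 11 in the ERβ line, 0 for doxycycline in the ERα line, 14 to 20 in the ERβ line, 4 to 8 for the E2 difference, 8 to 12 for the doxycycline difference and 44 to 48 between the lines. Over all genes, the authors' values called 4683, 3180, 34 and 4648 genes (E2 in the ERα and ERβ line, doxycycline in the ERα and ERβ line) and 2495 and 2759 for the E2 and doxycycline differences, against 2975, 1867, 2, 2776, 1174 and 1305; the compared arrays alone called 1070 for E2 in the ERβ line and 0 and 1548 for doxycycline. For arrays 4 to 9 of each line the replicate number was inferred from a rank match with the processed values. Deviations from the group means correlated at a median of 0.378 between arrays of the same number (44 of 45 pairs above 0.1), and 16 of 18 arrays were closest to one of their own number, a hint from the data. The median was -0.197 between arrays of different numbers, but the 3 deviations of a group sum to 0, so this value largely follows from the first. In the authors' processed values the same-number median was -0.187. The sample titles number the replicates, but no source says what a number marks, so the fit without it was kept. With the replicate number as a block, no call was lost (0 of 104), E2 in the ERβ line had 16 members called (12 higher and 4 lower, the falls of THBS1, LAMB1 and LAMA4 being added) and the E2 difference 7 (COL27A1, COL6A1 and COL9A2 added), LAMA4 passed in the doxycycline difference (adjusted p = 0.000554), and 1969 genes for the doxycycline difference; with the block on the authors' values 8 members and 1875 genes were called for the E2 difference and 2106 genes for the doxycycline difference. No other count over the members or all genes moved by more than 1.5 times. Levels below 6.08 to 6.52, depending on the array, could not be told from background.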
